A study of Homo sapiens with 9 samples.

Results

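The replication-dependent core histone genes were followed in total RNA from human embryonic stem cells of the H1 line, in which a clone with a knockout on chromosome X was compared with a control clone. The genes were taken by name and biotype from the table of all genes: protein-coding rows called H2AC, H2BC, H3C or H4C with a number, and H4-16. They number 61 of 60829 rows, with 16 genes for H2A, 17 for H2B, 13 for H3 and 15 for H4. The control clone (chrX-ctrl_H1, genotype WT) gave 4 libraries and the knockout clone (chrX-KO_H1, knocked out for the locus that the series calls HERVHlin) gave 5. HERVH is a family of endogenous retroviruses transcribed in human pluripotent cells. Each library is a successive passage of 1 clone. The series design handles the passages as technical replicates, while the sample titles label them biol_rep. P-values here therefore speak for the variation among passages, with a lone clone for each genotype. Both clones were grown in the stem cell medium mTeSR on vitronectin, and both carry a treatment label that calls the cells differentiated.

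Core histones are the proteins around which DNA is wrapped, and a dividing cell must double them while it copies its genome. Their replication-dependent genes are therefore transcribed mainly in S phase, lie in clusters and mostly lack introns. Their messages end in a conserved stem-loop in place of a poly(A) tail. The stem-loop is bound by the protein SLBP and the message is cut with the help of the U7 small nuclear RNA. Libraries made from total RNA without poly(A) selection, as here, can capture such messages.

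The stem-loop is shown because it is the feature that sets these messages apart from those of other coding genes. It was found in the GENCODE 29 transcripts of 27 of the 61 genes, 5 of 16 for H2A, 10 of 17 for H2B, 4 of 13 for H3 and 8 of 15 for H4. Only 4 exact sequences of 16 bases were searched for, and many of the other gene models stop at the coding sequence. A missing match therefore says nothing of the gene. In the lines that follow, written from 5′ to 3′ as DNA, capitals mark the 16 bases of the stem and its loop, and 5 flanking bases stand on each side.
H2AC8: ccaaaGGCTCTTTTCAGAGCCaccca
H2BC6: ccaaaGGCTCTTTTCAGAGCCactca
H2BC5: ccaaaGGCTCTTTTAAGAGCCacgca
H3C10: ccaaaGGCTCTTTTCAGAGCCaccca
H4C11: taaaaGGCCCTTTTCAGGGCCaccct
H4-16: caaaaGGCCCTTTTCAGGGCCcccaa
H4C14: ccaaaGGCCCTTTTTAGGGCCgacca
All the H2A, H2B and H3 matches had GGCTC on the 5′ side of the stem and all the H4 matches had GGCCC. The sequences searched held no other 5′ side.

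The promoters were searched for 4 short motifs over the 250 bases before the RefSeq transcription start (GRCh38.p14, both strands), for the 55 genes with a promoter entry. For the 4 genes with several entries the start nearest to the GENCODE gene start was taken. TATAAA, the core of the TATA box, was present in 70.9% of them against 11.1% of all 27305 promoters of that length. CCAAT, the box bound by the factor NF-Y, was present in 83.6% against 33.0%, but in 3 of 12 H4 promoters. ATTTGCAT, the octamer bound by POU2F1 and its relatives, was present in 73.3% of H2A and 82.4% of H2B promoters, 0 of 11 H3 promoters and 0 of 12 H4 promoters, against 1.66% of all promoters. GGTCCG, part of the element bound by the H4 transcription factor HINFP, was present in 11 of 12 H4 promoters and in 9.33% of all promoters. Shown are the last 120 bases before the start for H4C6, the gene with the lowest fold change, for H4C12, the most abundant member, and for 1 abundant gene of each other promoter type, with motif matches in capitals.
H4C6, chr6:26240273-26240392, plus strand: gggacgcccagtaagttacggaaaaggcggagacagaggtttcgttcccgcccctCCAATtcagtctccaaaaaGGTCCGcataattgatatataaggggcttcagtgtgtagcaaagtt
H4C12, chr6:27831561-27831680, minus strand: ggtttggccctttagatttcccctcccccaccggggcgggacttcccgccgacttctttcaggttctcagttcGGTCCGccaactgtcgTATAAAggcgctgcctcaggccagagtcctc
H2BC12, chr6:27146856-27146975, minus strand: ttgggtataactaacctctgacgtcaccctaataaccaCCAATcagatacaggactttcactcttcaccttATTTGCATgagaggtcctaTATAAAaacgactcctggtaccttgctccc
H3C2, chr6:26032100-26032219, minus strand: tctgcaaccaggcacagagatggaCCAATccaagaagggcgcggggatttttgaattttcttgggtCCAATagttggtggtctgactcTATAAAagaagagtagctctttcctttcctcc
H4C6 and H4C12 share the HINFP element, and of these 2 only H4C6 has a CCAAT match and only H4C12 a TATAAA match in the window. These matches describe the letters of the window and were not tied to binding.

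The genes lie in the known histone clusters (GRCh38). On chromosome 6, 29 lie between 25726132 and 26285638 and 20 between 27125897 and 27893843. On chromosome 1, 11 lie between 149782689 and 149887916. H4-16 stands alone on chromosome 12 (14767999 to 14771131). Of the 61 genes 57 passed the filter on low counts and were tested. H2AC1 and H2BC1, known as testis histone genes, had 9 and 20 reads over all libraries and H4C7 had 22. H2AC18 had 21 reads, although every 31-base stretch of its transcript also occurs in H2AC19, which was among the most abundant H2A genes. Shared sequence limits the values of several other members. For 15 of the 61 genes under 20% of the 31-base stretches of the annotated transcripts were unique to the gene, and for 37 at least 80% were. H3C14 and H3C15 have no unique stretch and hold identical values in every library, so they are not 2 independent measurements.

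The libraries held 19838682 to 31192630 reads, of which protein-coding rows took from 26.3% in knockout 1 to 50.8% in control 3. The row gene.human_00015544, 1 of those the authors marked as knocked out, held 1316 to 3935 normalized counts in the control libraries and 25.9 to 73.0 in the knockout libraries, and it fell by 5.49 on the log2 scale (SE 0.38, limma adjusted p = 0.00018). Embryonic stem cell markers were abundant, with POU5F1 at 10768 ± 4092 (SD, n = 4) and 7899 ± 1424 (SD, n = 5). All 8 listed markers of this type had negative fold changes with 0 called, and their sum was 30813 to 70499 normalized counts in control and 25641 to 39603 in knockout libraries. The 4 neural markers summed to 154 to 177 and 208 to 314, nearly all of it MAP2, whose libraries did not overlap between the clones (log2 fold change 0.58, adjusted p = 0.25 in limma). The 4 endoderm markers summed to 74.1 to 233 and 30.2 to 271, nearly all of it CXCR4, while SOX17, FOXA2 and GATA4 had 2, 3 and 13 reads over all libraries. The 4 mesoderm markers summed to 16.3 to 34.2 and 11.3 to 19.2, mostly MIXL1, and TBXT had 9 reads. MIXL1 was likewise without overlap (log2 fold change -0.71, adjusted p = 0.63 in limma). A full separation of this kind was seen in 3.95% of all tested rows. MAP2 and MIXL1 were picked from several marker lists and neither passed. They are therefore not shown to stand out from other rows. The 3 trophectoderm markers summed to 107 to 227 and 109 to 211, nearly all of it KRT7, and CDX2 had 2 reads. The 4 fibroblast markers summed to 3045 to 5434 and 2550 to 4273, and COL1A1 and THY1 were read in both clones (716 ± 205 and 3138 ± 914 in control, 417 ± 135 and 2640 ± 567 in knockout), with COL3A1 near 0. The part of these markers in the histone values was not tested. Within bulk RNA, fewer cells in S phase and less histone message per cell cannot be told apart.

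The summed core histone level differed by up to 3.56 times between libraries, and the clones overlapped. Levels are given as normalized counts, reads divided by the authors' size factor for the library. The sum over the 61 genes was 142654, 270861, 508258 and 169962 in control 1 to 4. It was 162794, 198537, 343759, 168279 and 201882 in knockout 1 to 5. Control 3 and knockout 3 were the highest of their clones, and the range of the controls enclosed all the knockout libraries. The means were 272934 ± 166291 (SD, n = 4) and 215050 ± 74044 (SD, n = 5), a knockout over control ratio of 0.788 with no test. Without control 3 the log2 ratio of the means went from -0.34 to 0.14, so that 1 library sets its direction.

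**Figure D1:**
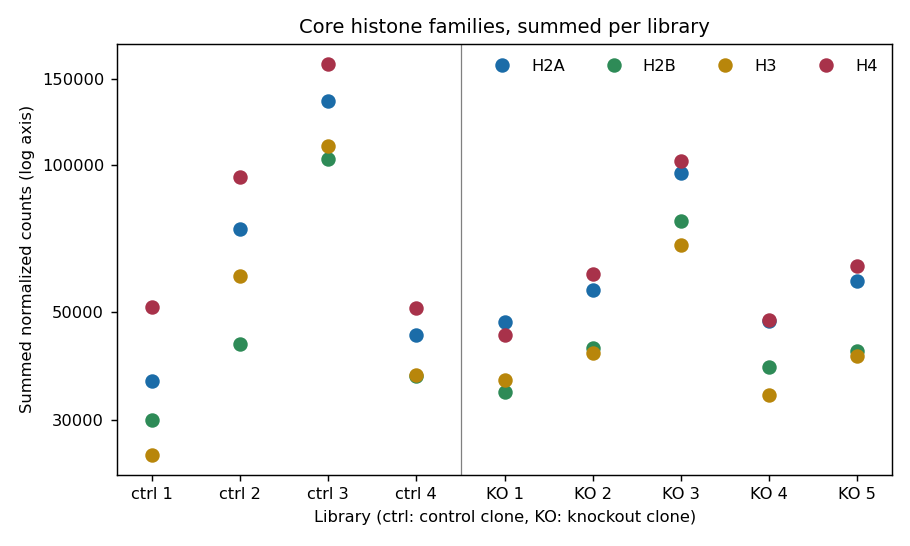
Summed normalized counts (log axis) of the H2A, H2B, H3 and H4 genes in each of the 4 control and 5 knockout libraries, 1 point per family and library. Control 3 and knockout 3 are the highest of their clones for every family, and H4 is the highest family in all libraries but knockout 1.

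Nearly all members moved together across passages. Control 3 was the highest of the 9 libraries for 57 of 57 tested genes, knockout 3 was the highest knockout library for 55 of 57, and control 1 was the lowest of all libraries for 38 of 57. The highest library exceeded the lowest by a median of 4.36 times, from 2.77 to 28.0 times. The SD of log2 levels within a clone had a median of 0.69 over the members and 0.33 over 11621 protein-coding rows averaging 50 or more normalized counts, and 97.5% of those rows were below the members' median. Departures on the log2 scale were taken from each gene's mean within its clone. In control 3 the median member lay 1.15 above that mean and the median coding row 0.36 above. In control 1 the members lay 0.83 below and the coding rows 0.07 below. In knockout 3 the values were 0.73 and 0.18 above. Core histone genes took 1.52% of protein-coding reads in control 1 and 3.61% in control 3. Control 3 was also the library with the highest coding share, and its part in the histone values was not tested.

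**Figure D2:**
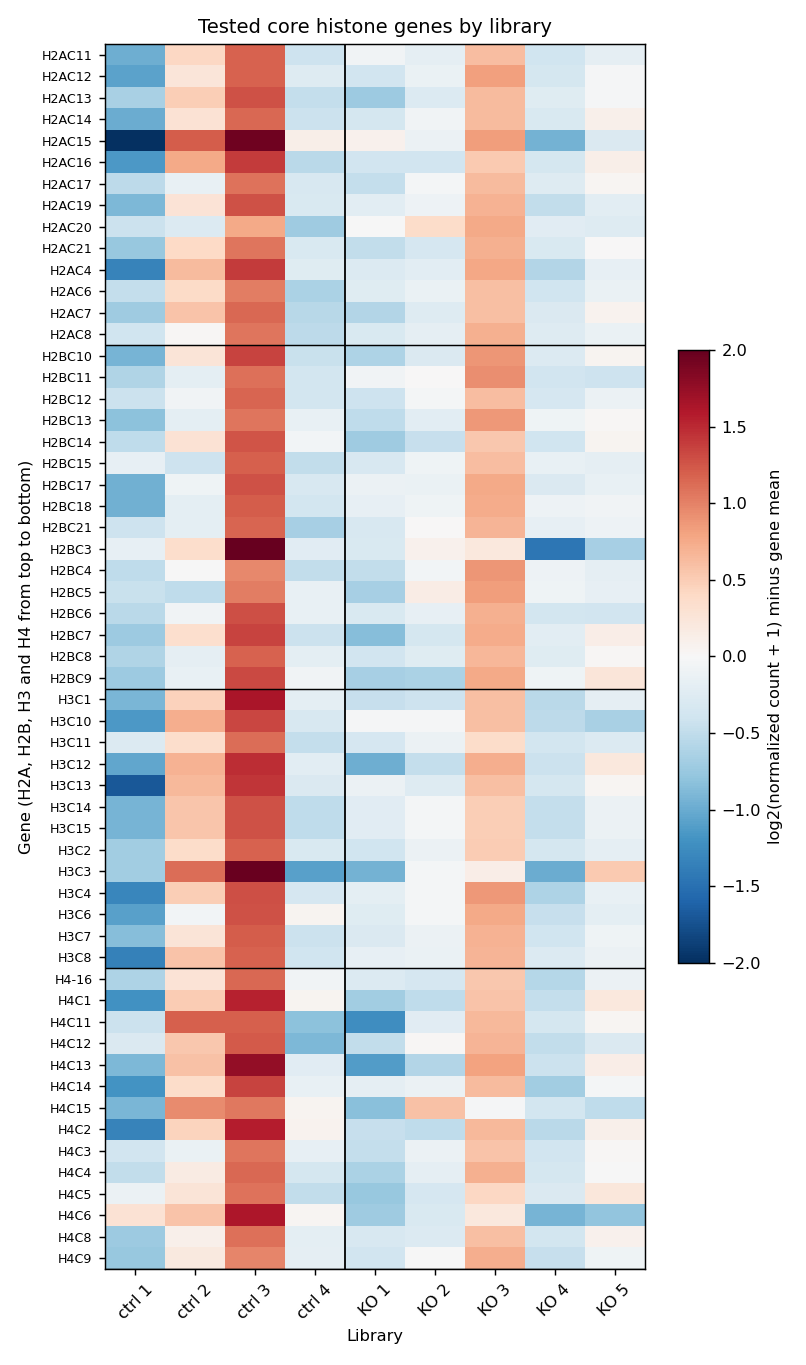
Each cell gives a gene's log2(normalized count + 1) in a library minus that gene's mean over the 9 libraries, for the 57 tested core histone genes by family, with colours capped at 2 on either side. The columns of control 3 and knockout 3 are red for nearly every gene and that of control 1 blue for most, while H4C6 is red in control 1 and blue in knockout 1, 4 and 5.

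No core histone gene differed between the clones past the threshold of an adjusted p of 0.05 in limma, a linear model fitted to all rows. This gave 0 of 57 members called, where the background over all 27777 tested rows was 0.54% (0.425% lower and 0.115% higher), and edgeR's quasi-likelihood test also called 0 (background 0.544%). With the replicate number as a block 0 members were called too (background 0.155%). DESeq2 called 1 member, H4C6, at a background of 2.14%. At an unadjusted limma p under 0.05 there was 1 member, again H4C6, where the background was 8.63%. In no member did the libraries of the clones fall apart without overlap, which happened for 3.95% of all rows. These counts are not above the background.

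The fold changes were small and mostly below 0. Of 57 members 47 had a negative log2 fold change, with a median of -0.17, while 49.0% of all rows and 63.4% of protein-coding rows were negative, with medians of 0.01 and -0.09. The direction rests on control 3, without which 11 of 57 were negative and the median was 0.22. It also turned under quantile normalization (17 of 57 negative, median 0.10). When libraries were scaled by protein-coding rows other than the members, which raised the median of all rows from 0.01 to 0.11, 36 of 57 were negative and the members' median was -0.06. Without control 1 the median was -0.47. By position, the medians were -0.19 in the first block on chromosome 6, -0.16 in the second and -0.155 on chromosome 1.

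**Figure D3:**
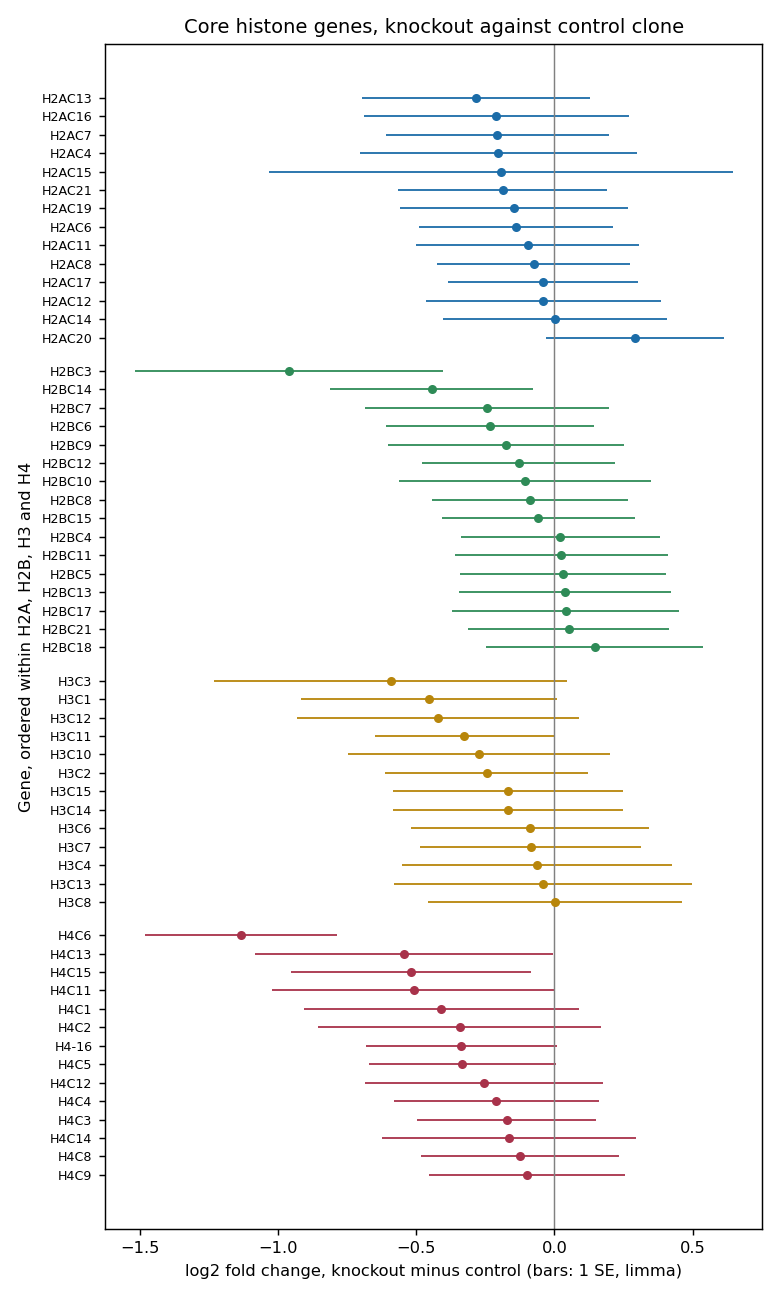
Log2 fold change of each tested core histone gene (knockout minus control, limma, bars 1 SE), ordered within H2A, H2B, H3 and H4. Most bars cross 0, and H4C6 at -1.13 lies lowest, followed by H2BC3 at -0.96, a gene with few reads.

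H4 genes, which encode the histone paired with H3 at the centre of the nucleosome, had the lowest median of the families. All 14 tested H4 genes were negative, with a median of -0.33, but 8 of 14 were negative under quantile normalization (median -0.13), 13 of 14 under scaling by protein-coding rows (-0.23) and 6 of 14 without control 3 (0.07). H4C12, the most abundant member, held 14030, 24881, 40253 and 9236 normalized counts in control 1 to 4 and 12299, 17489, 27546, 12249 and 14064 in knockout 1 to 5. Control 4 was its lowest library and the clones overlapped (log2 fold change -0.25, SE 0.43, limma adjusted p = 0.88). H4C11 held 6578, 20338, 20479 and 5023 in control and 3760, 7637, 13984, 6944 and 9150 in knockout libraries. Control 2 and control 3 were high for H4C11, and control 1 and control 4 lay within the range of the knockout libraries (log2 fold change -0.51, SE 0.51, limma adjusted p = 0.81). All 31-base stretches of the annotated H4C12 transcript lie in H4C11 as well, so how their reads were divided is uncertain. H4-16, the member outside the clusters, held 1180 to 4021 normalized counts in control and 1217 to 2636 in knockout libraries (log2 fold change -0.34, SE 0.35, limma adjusted p = 0.82). Its high libraries were again control 3 and knockout 3.

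H4C6 had the lowest fold change of all members. It lies on chromosome 6 (26240426 to 26240737, plus strand) in a transcript model of 312 bases in which every 31-base stretch is unique to it. Its normalized counts were 9153, 11078, 22782 and 7642 in control 1 to 4 and 4535, 6036, 8656, 3909 and 4325 in knockout 1 to 5. Knockout 3 was above control 4, and otherwise every knockout library was below every control library. The means were 12664 ± 6891 (SD, n = 4) and 5492 ± 1943 (SD, n = 5), and the log2 fold change of -1.13 (SE 0.35) did not pass in limma (unadjusted p = 0.0090, adjusted p = 0.30). DESeq2 gave -1.17 (SE 0.34) and an adjusted p = 0.034, which passed, and the authors' deposited table lists -1.21 with an adjusted p = 0.056.

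The difference in H4C6 had the same direction under all 18 settings, from -1.33 without control 4 to -0.80 under quantile normalization, but it passed in 1 of them. Without control 3, which turned the direction of most members, it was -0.81 (limma adjusted p = 0.48). Knockout over control ratios of libraries with the same replicate number were 0.495, 0.545, 0.380 and 0.512, while the summed core histone level had ratios of 1.14, 0.733, 0.676 and 0.990. With the replicate number as a block the log2 fold change was -1.06 and its SE 0.14, against 0.35 without the block (limma adjusted p = 0.095). Of the other members H2BC14, H4C13, H2BC3 and H4C4 also had a ratio below 1 in all 4 pairs. Those of H4C4 reached 0.996. With H4C6 this made 5 of 57 tested members. The share of all tested rows with a ratio below 1 in all 4 pairs was not computed. The shared direction of the H4C6 pairs is therefore not shown to be rarer than in other genes.

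As a share of all H4 counts, H4C6 took 17.9%, 11.7%, 14.1% and 15.0% in control 1 to 4 and 10.1%, 10.1%, 8.48%, 8.13% and 6.98% in knockout 1 to 5. The shares did not overlap between the clones, with means of 14.7% ± 2.57 (SD, n = 4) and 8.76% ± 1.35 (SD, n = 5). H4C6 was singled out after its values were seen, so no test is given. Of the 57 tested members, 55 had overlapping shares of their own family. H3C7 was the other exception, at 7.54% to 8.30% of H3 in control and 8.48% to 8.996% in knockout libraries. Levels did not overlap between the clones for 3.95% of all tested rows. A rate for shares over all rows was not computed, so the exceptions are not shown to exceed what other genes would give. Without H4C6 the log2 ratio of the summed H4 level was -0.41, where it was -0.50 with it.

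**Figure D4:**
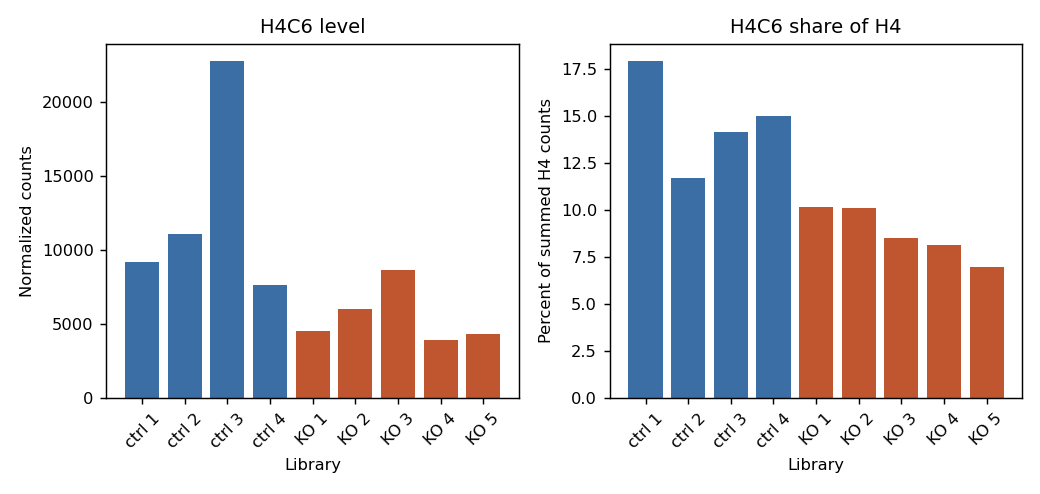
H4C6 in each library as normalized counts (left) and as a percent of the summed counts of all H4 genes (right), controls in blue and knockouts in orange. On the left knockout 3 (8656) exceeds control 4 (7642), and on the right the controls (11.7% to 17.9%) lie above all knockouts (6.98% to 10.1%).

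The tested core histone genes nearest to H4C6 had smaller fold changes, and the difference between genes was not tested. Only core histone genes were searched as neighbours, so other genes nearby were not examined. The nearest members are H4C7 at 5944 bases, which was not tested, H3C7 at 9458, H2BC9 at 10914 and H3C6 at 12953 bases. H3C7 had a log2 fold change of -0.09 (SE 0.40), H2BC9 of -0.17 (SE 0.43) and H3C6 of -0.09 (SE 0.43). A gene of the same cluster that is no core histone did pass. H1-1, a linker histone gene on chromosome 6 (26017085 to 26017732, minus strand), held 413, 1969, 3448 and 330 normalized counts in control 1 to 4 and 17.2, 11.3, 15.1, 8.97 and 29.5 in knockout 1 to 5. It fell by 5.93 on the log2 scale (SE 0.69, limma adjusted p = 0.0048), and with the replicate number as a block its adjusted p was 0.052. Its nearest core histone neighbours H3C1, 2758 bases away, and H4C1, 3947 bases away, had log2 fold changes of -0.45 (SE 0.46) and -0.41 (SE 0.50) with overlapping libraries.

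H3 genes gave 12 of 13 negative fold changes and a median of -0.17, which was 0.02 under quantile normalization and 0.22 without control 3. H3C2 held 5618, 11760, 20563 and 7396 normalized counts in control and 6888, 8436, 12971, 7108 and 8039 in knockout libraries. Control 3 was highest and control 1 lowest, and all knockout libraries lay between them (log2 fold change -0.24, SE 0.37, limma adjusted p = 0.87). H3C11 ranged from 6290 to 19110 in control and from 6827 to 11330 in knockout libraries (-0.33, SE 0.32, limma adjusted p = 0.81). H3C6 ranged from 3366 to 17407 and from 5219 to 12092 (-0.09, SE 0.43). H3C3, whose log2 fold change of -0.59 (SE 0.64, limma adjusted p = 0.82) was among the 3 lowest, was read at only 20.8 to 182 normalized counts in control and 22.4 to 65.6 in knockout libraries, although H3C2 of the same block was among the most abundant members.

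H2A genes, which encode one partner of the H2A-H2B dimer, had a median log2 fold change of -0.14, with 12 of 14 negative, which turned to 0.14 under quantile normalization and 0.26 without control 3. H2AC19 held 4967, 11137, 22273 and 7485 normalized counts in control and 8009, 8617, 14984, 6609 and 7961 in knockout libraries. Control 1 was its lowest library and control 3 its highest, and the knockout libraries lay between them (-0.15, SE 0.41, limma adjusted p = 0.93). H2AC14 ranged from 3649 to 16085 in control and from 5707 to 11355 in knockout libraries (log2 fold change 0.00, SE 0.40). H2AC8 ranged from 4752 to 14450 and from 5527 to 11267 (-0.07, SE 0.35). H2AC20 had the most positive value of all members, with 3023, 3362, 6902 and 2494 in control and 4054, 5260, 6892, 3491 and 3411 in knockout libraries. All its knockout libraries lay above 3 of the 4 controls and below control 3 (0.29, SE 0.32, limma adjusted p = 0.82). It was positive under all 18 settings and passed under none.

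As a share of the core histone sum, H2A took 25.3% to 27.3% in control and 28.0% to 29.2% in knockout libraries, without overlap. With H4C6 left out of the sum the ranges lay close together, at 27.0% to 28.49% and 28.76% to 30.1%. H4 took 30.0% to 35.8% and 27.5% to 30.7%, H3 17.8% to 21.9% and 19.9% to 22.2%, and H2B 15.9% to 21.8% and 20.6% to 22.9%, all overlapping. The shares add to a fixed total and are a description with no test. How often shares of other gene groups would fall apart in this way was not computed. The H2A shares are therefore not shown to be unusual.

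H2B genes had the median nearest to 0, -0.07 with 9 of 16 negative, and it was above 0 under scaling by protein-coding rows (0.03), under quantile normalization (0.18) and without control 3 (0.33). H2BC12 held 5458, 6948, 16389 and 5663 normalized counts in control and 5521, 7150, 11229, 5817 and 6735 in knockout libraries. The values apart from control 3 and knockout 3 fell in 1 narrow range from 5458 to 7150 across both clones (-0.13, SE 0.35, limma adjusted p = 0.92). Its sequence is largely shared, with 13.7% of stretches unique. H2BC5 ranged from 3441 to 9896 in control and 3063 to 8751 in knockout libraries (0.03, SE 0.37), and H2BC6 from 3896 to 13805 and 4340 to 9246 (-0.23, SE 0.38). H2BC18 and H2BC21, both on chromosome 1, were the other members among the 3 most positive, at 0.15 (SE 0.39) and 0.05 (SE 0.36), and both turned negative under some settings. H2BC3 had few reads, 15.9, 23.3, 84.8 and 15.4 in control and 14.4, 19.2, 20.96, 5.98 and 11.1 in knockout libraries. Control 3 alone was far above the rest (-0.96, SE 0.56, limma adjusted p = 0.69).

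Genes that make or process histone messages did not pass. Of the 26 listed, 25 were tested and 0 were called, where the background over all tested rows was 0.54%. A list of this size is too small for 0 calls to set it apart from that background. Negative fold changes were found for 19 of the 25, where 63.4% of protein-coding rows were negative. The median of the list was -0.08, and that of protein-coding rows -0.09. The list median turned to 0.09 without control 3, 0.03 under scaling by protein-coding rows and 0.01 under quantile normalization. SLBP, the stem-loop binding protein, stood at 493 ± 227 (SD, n = 4) and 428 ± 134 (SD, n = 5) normalized counts, a log2 difference of -0.15 (SE 0.34, limma adjusted p = 0.91). NPAT, the coactivator of histone transcription at histone locus bodies, stood at -0.14 (SE 0.15), CASP8AP2, another component of these bodies, at -0.08 (SE 0.12), and HINFP at 0.09 (SE 0.13). Of the U7 particle, LSM10 stood at -0.53 (SE 0.32, limma adjusted p = 0.71) and LSM11 at 0.13 (SE 0.30), and its partner ZNF473 at -0.05 (SE 0.17). The cleavage factors CPSF2, CPSF3 and SYMPK stood at -0.13, -0.11 and 0.13 and ERI1, an exonuclease that trims the stem-loop end, at -0.38 (SE 0.21, limma adjusted p = 0.67). YY1 and NCBP2, the most abundant others of the list, stood at -0.04 and -0.07. RNU7-1, the U7 RNA gene, is listed at 0 reads in every library.

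Replication-independent histones are mostly made throughout the cell cycle and mostly from polyadenylated messages, though not every listed gene follows this. They gave 0 calls of 12 tested from a list of 13, again too few genes to differ from the background of 0.54%. Their median was -0.09 (0.20 without control 3, 0.14 under quantile normalization and 0.01 under scaling by protein-coding rows). H3-3A stood at -0.18 (SE 0.31), H2AZ1 at -0.20 (SE 0.34), H3-3B at -0.18 (SE 0.29) and H1-10 at -0.06 (SE 0.34). The S-phase list of replication and chromatin assembly genes gave 0 calls of 23 tested, at the same background. Its median was -0.11 (0.13 without control 3, 0.04 under quantile normalization and -0.004 under scaling by protein-coding rows). NASP, a histone chaperone, stood at -0.36 (SE 0.28), the helicase subunits MCM4 and MCM3 at -0.01 (SE 0.32) and -0.17 (SE 0.28), and the replication clamp PCNA at -0.18 (SE 0.34).

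The summed level of these lists had the same high library. The S-phase sum was 16877, 27629, 42625 and 22715 in control 1 to 4 and 20517, 21353, 28218, 20950 and 25469 in knockout 1 to 5. Control 3 and knockout 3 were again the highest of their clones and control 1 the lowest of all. The core histone sum covered a 3.56-fold range between libraries, the replication-independent histone sum a 2.64-fold range, the S-phase sum a 2.53-fold range and the processing sum a 1.68-fold range. The ratio of the core histone to the S-phase sum was 7.48 to 11.9 in control and 7.93 to 12.2 in knockout libraries, and it too was highest in control 3 and knockout 3.

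**Figure D5:**
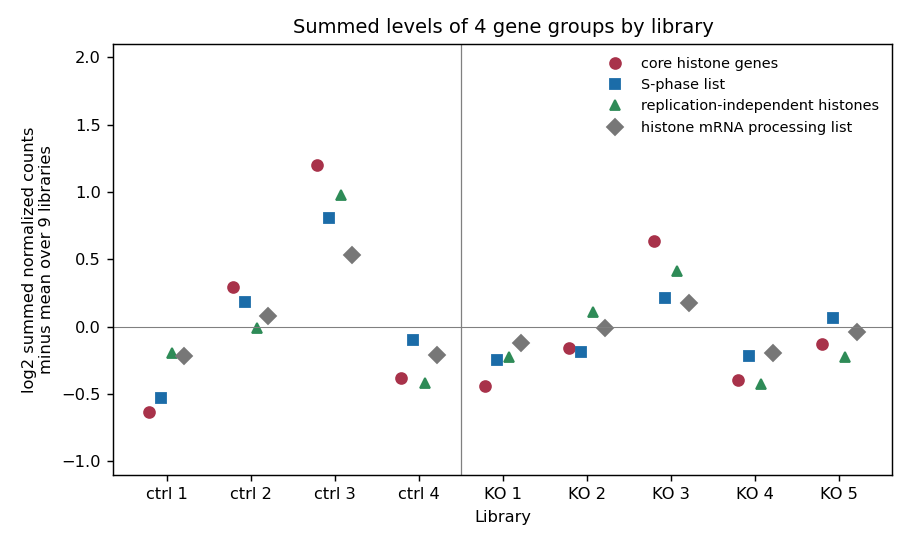
Summed normalized counts of the core histone genes and of the lists of S-phase, replication-independent histone and histone mRNA processing genes, each as log2 minus its mean over the 9 libraries, with points of a library set side by side. All 4 sums are highest in control 3, and the core histone sum spans the widest range (3.56-fold).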

How the data were processed

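Total RNA libraries of 4 control and 5 knockout passages were analysed. The members and gene lists were chosen with earlier results of these data known. The submitters' processing notes name fastp, kallisto, DESeq2 and hg38, with no versions, roles or annotation. In the deposited signal columns each value is a read count that the authors scaled by a size factor of its library, called a normalized count here. Within a tolerance of 1e-06, 100% of values were whole reads. The deposited table also holds the authors' log2 fold change, test score, p-value and adjusted p.

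Rows passing edgeR's filterByExpr (minimum count 10, recovered reads) were fitted with limma 3.58.1 (R 4.3.3), with a trend, on log2(value + 1), group as the only term. Fold changes are on this scale, which understates the change of low genes. P-values were Benjamini-Hochberg adjusted over all 27777 rows. The code was tested on simulated data. Alternatives were a pseudocount of 5, no filter, edgeR 4.0.16, DESeq2 1.42.0, TMM, protein-coding and quantile scaling, a replicate block and leaving out each library. Genes named were called members, the 3 most abundant per family, the 3 highest and 3 lowest fold changes, H4-16, 12 processing genes, H1-1 and the 4 most abundant of each list. H3C7, H2BC9, H3C1, H4C1, H2BC14, H4C13 and H4C4 were added after their values were seen. Gene positions came from GENCODE 29, by Ensembl ID for 59 members and by older symbol for 2.

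Replicate numbers stand under a batch tag in the labels, so equal numbers were taken as paired. Within pairs, departures from the mean of each clone had correlations of 0.062, 0.013, 0.28 and 0.36 for numbers 1 to 4. Between unlike numbers they ran from -0.33 (control 3 with knockout 4) to 0.24 (control 4 with knockout 5). Control 1 reached 0.060 with knockout 4, and control 2 reached 0.027 with knockout 1, above its own pair. The correlations thus do not show a pairing for numbers 1 and 2. Knockout 5 has no partner.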

Additional observations from a re-analysis of the deposited data

Results flagged for a closer look

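In 18 of 46 groups of libraries examined, 1 library lay far from the others of its clone, measured as its gap to the nearest library divided by the clone's range. The gaps were taken on normalized counts, where a high library stands further apart than on the log2 scale of the fits. Chance would flag about 1 in 20 groups only for normally distributed values. The 18 of 46 therefore cannot be set against that rate. The genes also share their libraries, so the flags are not independent. Every one was control 3 or knockout 3, at the high end. In control 3 the gap was 0.864 of the range for H2BC12, 0.854 for H2BC21, 0.885 for H2BC3, 0.848 for H2BC5 and 0.847 for H2BC6. In knockout 3 it was 0.76 for H2AC19, 0.878 for H2AC8, 0.714 for H2BC12, 0.933 for H2BC18, 0.747 for H2BC21, 0.853 for H2BC6, 0.72 for H3C11, 0.746 for H3C2 and 0.747 for H3C6. The summed levels were also set apart in knockout 3, by 0.784 for all core histone genes, 0.79 for H2A, 0.816 for H2B and 0.791 for H3. H4C6, H4C11, H4C12, H4-16, H2AC14, H2AC20 and H3C3 had no such library in either clone.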

How the results depend on the processing

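Of 17 alternatives, DESeq2 changed the number of core histone genes called, from 0 to 1 (H4C6, log2 fold change -1.17), and the others kept it at 0. The count over all rows, 150, was 593 with DESeq2 and 43 with a block for the replicate number. Leaving out 1 library gave 80 to 184, with 81 when control 2 was omitted, 97 for knockout 2, 80 for knockout 4 and 82 for knockout 5. The cause was not tested. The block pairs 8 libraries and changed no call among the core histone genes. The log2 ratio of the summed core histone level ran from -0.58 without knockout 3 to 0.14 without control 3. Leaving H4C6 out of the H4 sum was chosen after seeing the data. For H2BC3 and H3C3 few reads limit the precision.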
